A study of Mus musculus with 24 samples.

Results

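The mitochondrial genome genes are the genes whose symbol starts with mt- and that lie on chrM in the gene table that comes with the counts. The rule gave 37 genes of 48709, and these are 13 mRNA genes, 2 rRNA genes and 22 tRNA genes. They were counted in RNA from neonatal mice, taken from whole blood and from the dissected cerebral cortex (strain C57BL/6J per the labels and C57BL/6NJ per the methods) whose dams breathed filtered air (control) or re-aerosolized nPM, a nano-sized particulate matter (300 mg/m3 per the labels, while the methods give the unit as μg/m3), for 5 h a day on 3 days a week from gestational day 2 until birth. Pups were 3 to 5 days old per the labels and 5 days old per the methods. The 3 pups of a sex and exposure came from different litters per the methods, and whether a male and a female shared a litter is not given. The labels do not tell which blood and cortex libraries share a pup. Each tissue had 12 libraries, 3 per sex and exposure. The control female blood library V2 was left out of the main comparisons, which left 5 control blood libraries.

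Mitochondrial DNA is a small circular genome that is transcribed on both strands into long precursors, and the tRNAs between the other genes mark where these are cut. Its mRNAs encode subunits of the respiratory chain complexes I, III and IV and of ATP synthase (complex V), while all subunits of complex II and most subunits of the others are encoded in the nucleus. Its rRNAs form the mitochondrial ribosome that translates these mRNAs. Neurons rely on oxidative phosphorylation, whereas maturing red cells lose their mitochondria.

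Libraries held 13595647 to 33804371 gene counts, and a count of 0 allows a level of up to 0.0887 to 0.221 CPM (counts scaled to the library's gene total), which covers counting error only. The labelled tissues were checked with marker genes. Neuron markers summed to 3605 to 4676 CPM in cortex and 1.28 to 11.8 CPM in the 11 blood libraries, and red cell lineage markers to 442 to 876 CPM in cortex and 695824 to 791465 CPM in blood. In V2 these sums were 51.9 and 517830 CPM. In bulk RNA, fewer cells of a type and less RNA per cell cannot be told apart.

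The tRNA genes with the most counts are shown first because their sequences show why a count on them is hard to assign. They are GENCODE M21 transcripts on GRCm38, written 5′ to 3′, and capitals mark bases that also belong to a neighbouring gene. They lie at chrM:4950-5016 (mt-Tw, plus strand), chrM:3706-3774 (mt-Ti, plus), chrM:3845-3913 (mt-Tm, plus), chrM:15356-15422 (mt-Tp, minus) and chrM:3772-3842 (mt-Tq, minus).
mt-Tw: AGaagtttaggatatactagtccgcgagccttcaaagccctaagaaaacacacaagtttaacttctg
mt-Ti: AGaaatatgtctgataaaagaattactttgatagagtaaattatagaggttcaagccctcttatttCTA
mt-Tm: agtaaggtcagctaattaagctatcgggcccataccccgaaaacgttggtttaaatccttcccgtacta
mt-Tp: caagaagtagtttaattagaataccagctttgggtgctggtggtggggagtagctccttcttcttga
mt-Tq: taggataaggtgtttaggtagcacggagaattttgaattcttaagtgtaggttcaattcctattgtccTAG

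The capitals of mt-Tw and the first capitals of mt-Ti are the last bases of mt-Nd2 and mt-Nd1, 2 bases each, and mt-Ti and mt-Tq share 3 bases on opposite strands. Each of these tRNA genes is shorter than 75 bases, so a read that reaches past it can come from a long precursor. A mature tRNA and an uncut precursor cannot be told apart in these counts.

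The rRNAs took the largest share of the mitochondrial counts although the RiboZero Gold kit removes rRNA, so their counts are what was left after depletion. In cortex, mt-Rnr1 and mt-Rnr2 (small and large subunit rRNA) together took 5.59% ± 0.54 (SD, n = 6) of the gene counts in controls and 5.66% ± 0.28 (SD, n = 6) with nPM. In blood they took 2.54% ± 0.19 (SD, n = 5) and 3.11% ± 0.65 (SD, n = 6). The 13 mRNAs took 1.60% ± 0.31 in control cortex and 0.325% ± 0.034 in control blood. These shares depend on the globin transcripts in blood. With globin genes left out of the total, the rRNAs took 9.74% in control blood, above the 5.59% of control cortex, and the 13 mRNAs 1.25%, against 1.60% in cortex. The 22 tRNAs summed to 404 to 592 counts in a cortex library and 3 to 32 counts in a blood library, against 92 counts in V2.

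Levels per length (RPKM, CPM per kilobase of gene) followed a steep order in the 2 rRNAs and in 7 of the 13 mRNAs. The other 6 mRNAs, which lie in a stretch with a nuclear copy (described with the spread between libraries), are given after them. In control cortex, mean RPKM was 30816 for mt-Rnr2, 7449 for mt-Rnr1, 5751 for mt-Co1 (a core subunit of complex IV), 2169 for mt-Nd1 (complex I) and 1754 for mt-Cytb (cytochrome b of complex III). The complex I subunits mt-Nd2, mt-Nd4, mt-Nd5 and mt-Nd6 had mean RPKM of 512, 350, 217 and 85.5. The ranges of neighbours in this order of 9 genes did not overlap among the 6 libraries. mt-Nd6, the only mRNA encoded on the opposite strand to the others, was the lowest of these 9, between 75.3 and 95.0 RPKM, and shares 14 bases with mt-Nd5 on the other strand. The tRNAs mt-Tw and mt-Ti had mean RPKM of 60.3 and 54.5, and their ranges overlapped. The 6 mRNAs of the copied stretch had mean RPKM of 904 (mt-Co3), 722 (mt-Co2), 326 (mt-Atp6), 284 (mt-Nd3), 246 (mt-Atp8) and 27.4 (mt-Nd4l) in control cortex. Their ranges overlapped those of several other genes, from 22.5 to 4134 RPKM for mt-Co3 and from 0.229 to 124 RPKM for mt-Nd4l, so they have no place of their own in the order.

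In control blood the same leading genes kept their places, with mean RPKM of 14336 for mt-Rnr2, 2838 for mt-Rnr1 and 1346 for mt-Co1. Next came 4 mRNAs of the copied stretch, mt-Co3 (543), mt-Co2 (495), mt-Atp6 (253) and mt-Atp8 (148). The complex I and III mRNAs lay lower, with mean RPKM of 58.4 for mt-Cytb, 46.5 for mt-Nd1, 26.7 for mt-Nd4, 11.9 for mt-Nd2, 11.1 for mt-Nd5 and 7.54 for mt-Nd6, and of 42.6 for mt-Nd3 of the copied stretch, while mt-Nd4l of the same stretch was at 4.17 to 10.6 RPKM. The ranges of mt-Cytb and mt-Nd1 overlapped, and so did those of mt-Nd2, mt-Nd5 and mt-Nd6, while mt-Nd4 overlapped none of these.

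**Figure D1:**
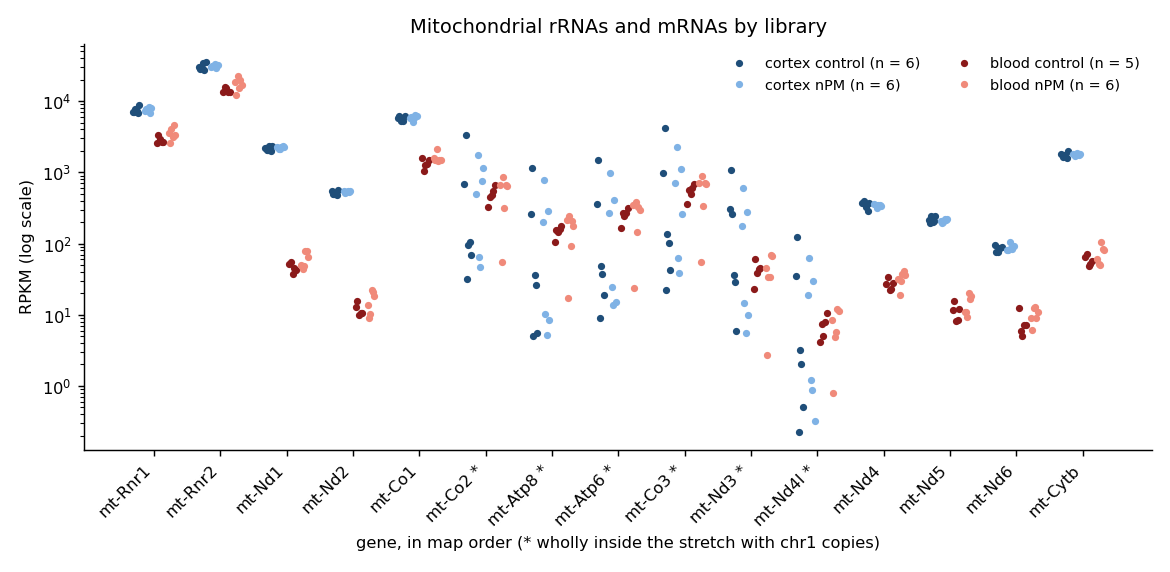
Level per length (RPKM, log axis) of the 2 rRNAs and 13 mRNAs in map order, 1 point per library and 1 colour per tissue and exposure (6 libraries each, 5 in control blood). The points of a group lie close together for mt-Rnr2 and mt-Co1 and spread over orders of magnitude for the cortex libraries at the genes marked with an asterisk, from 31.8 to 3352 RPKM for mt-Co2 in control cortex.

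The tRNA genes had few counts. In cortex, 10 of 22 had a count in every library, 7 in some and 5 in none. In blood no tRNA gene had a count in every library, and 4 (mt-Tf, mt-Tv, mt-Tg and mt-Tr) were at 0 in all 24 libraries. mt-Tw had 88 to 145 counts in cortex (median 116.5) and 0 to 7 in the 11 blood libraries. mt-Ti had 86 to 149 counts in cortex and 0 to 5 in blood, and mt-Tm 50 to 111 and 0 to 3. mt-Tp (39 to 88 in cortex) and mt-Tq (27 to 51 in cortex) completed the 5 of highest mean count. In V2 these 5 tRNAs had 21, 18, 13, 10 and 6 counts, each above every other blood library except mt-Tq, which had 9 counts in V7.

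A stretch of the mitochondrial genome has a near-identical copy in the nucleus. Over chrM:6390-11042 (4653 bases) 7 mRNA genes were matched, nearly whole or in part, by 7 unprocessed pseudogenes on the minus strand of chr1:24611535-24616197. Of the 7 copies, 5 had no difference from their gene, namely those of mt-Co2 (681 bases aligned), mt-Atp6 (678), mt-Co3 (783), mt-Nd4l (294) and mt-Nd4 (876 of 1378 bases). The copies of mt-Nd3 and of the last 483 of 1545 bases of mt-Co1 were 99.71% and 99.793% identical. Short windows around these differences are shown because a read there can tell gene from copy. Capitals mark the substitutions T3C in mt-Nd3 and A1066T in mt-Co1, with positions counted from 1 at the first base of the mitochondrial gene and the gene's base first. The windows are chrM:9459-9490 against chr1:24613088-24613119 and chrM:6381-6422 against chr1:24616156-24616197, the latter being where the match starts, with 6 differences in the window.
mt-Nd3: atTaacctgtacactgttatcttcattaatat
Gm28438: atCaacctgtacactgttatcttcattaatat
mt-Co1: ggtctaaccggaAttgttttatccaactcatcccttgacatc
Gm29216: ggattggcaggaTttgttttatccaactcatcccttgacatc

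Wholly inside this stretch lie 6 mRNA genes (mt-Co2 and mt-Co3 of complex IV, mt-Atp6 and mt-Atp8 of ATP synthase, mt-Nd3 and mt-Nd4l of complex I) and 5 tRNA genes. Their counts are uncertain, since how reads with several matches were counted is not given in the sources used here. The split of the mRNAs by this stretch was made after their spread was seen, and is defined by position alone.

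The 6 mRNAs differed between libraries far more than the other members. In control cortex, mt-Co2 was at 454, 2287 and 21.7 scaled CPM in the females V10, V12 and V19 and at 67.9, 71.7 and 47.8 in the males V14, V16 and V24. With nPM it was at 335, 1213 and 44.5 in the females V09, V11 and V20 and at 31.7, 520 and 789 in the males V13, V15 and V23. Low and high libraries therefore occurred in both exposures, with ranges that overlapped.

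Over the 12 cortex libraries the highest unscaled CPM was 105.54 times the lowest for mt-Co2, 229 times for mt-Atp8, 184 times for mt-Co3 and 541 times for mt-Nd4l. For the 2 rRNAs and the 7 other mRNAs this ratio was 1.17 to 1.38. In blood it was 13.95 to 25.5 for the 6 mRNAs, with the nPM female library V18 lowest in all 6, and 1.80 to 2.53 for the others. The 6 did not always move together. V19 had the lowest mt-Co2 (640 counts) but 2692 counts of mt-Nd3, and V23 had 24523 counts of mt-Co2, 6286 of mt-Co3 and 321 of mt-Atp6.

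The spread stayed wide when the counts on the chr1 copies were added. Together the 7 copies had 1923 to 3242 counts in 11 cortex libraries and 7963 in the control male library V24. Adding each copy to its gene left the ratio of highest to lowest CPM in cortex at 67.0 for mt-Co2, 56.0 for mt-Atp6, 81.7 for mt-Co3, 29.5 for mt-Nd3 and 221 for mt-Nd4l. For mt-Atp8 there was no annotated copy to add. The part of read assignment in this spread was not tested.

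**Figure D2:**
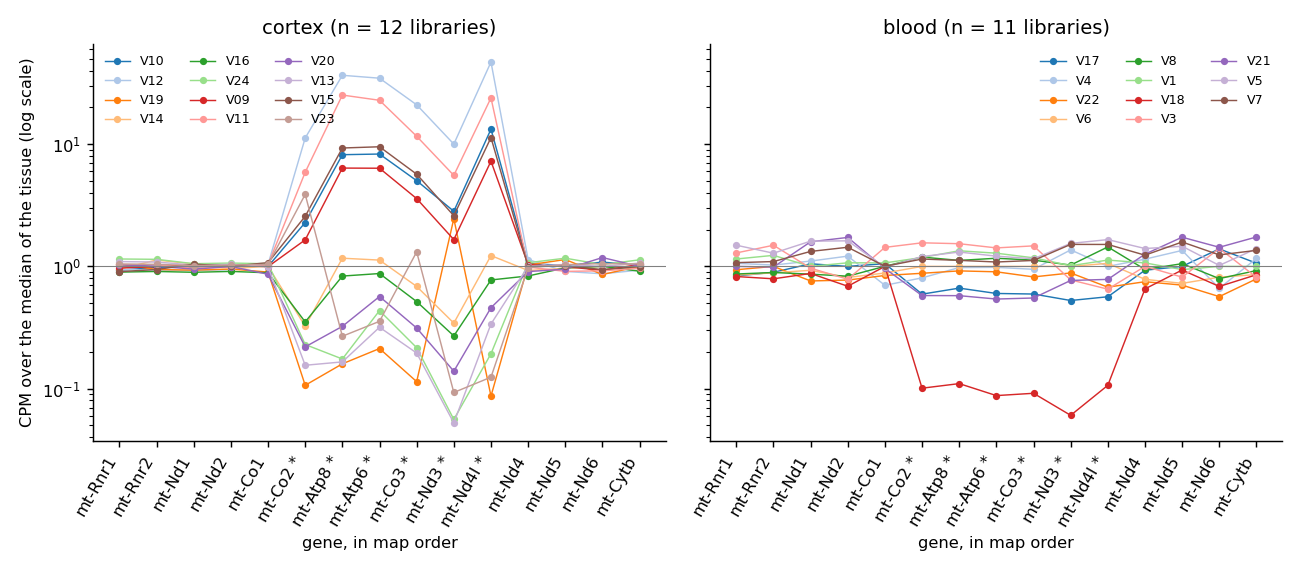
CPM of each rRNA and mRNA over its median in the tissue (log axis), 1 line per library, in cortex (12 libraries) and blood (11 libraries). In cortex the lines lie near 1 outside the copied stretch, where highest and lowest differ by 1.17 to 1.38 times, and fan out at the 6 genes marked with an asterisk; in blood V18 drops at those 6.

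The first comparison asks whether prenatal nPM changed the level of these genes in cortex. No mitochondrial gene passed the test there. Of 37 genes, 25 had a count in every cortex library and were tested, and 0 passed an unadjusted p of 0.005, beside 0.614% of all 20857 genes tested. At the adjusted p of 0.05 it was again 0, beside 0.0144%. At an unadjusted p of 0.05 edgeR, DESeq2 and limma voom also called 0 of the 25.

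Scaled CPM of mt-Rnr2 in cortex was 44066 to 56552 (median 45919) in controls and 45325 to 52616 (median 49245) with nPM, a log2 fold change of 0.01 (SE 0.07). mt-Rnr1 changed by 0.04 (SE 0.07). The ranges of the groups overlapped for both rRNAs.

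mt-Nd1 was at 1911 to 2297 scaled CPM in control cortex and 2014 to 2211 with nPM, a log2 fold change of 0.04 (SE 0.05). mt-Co1 was at 8048 to 9744 and 7773 to 9659, a log2 fold change of 0.02 (SE 0.07). For mt-Nd2, mt-Nd4, mt-Nd5, mt-Nd6 and mt-Cytb the log2 fold changes were 0.05, -0.04, -0.07, 0.03 and 0.01, with SE of 0.05 to 0.06. The fit thus held these 7 mRNAs to a narrow margin, whereas the 6 mRNAs of the copied stretch had log2 fold changes of 0.31 to 0.85 with SE of 0.95 to 1.22.

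Among the tRNAs, mt-Tl1 (a leucine tRNA) had the smallest p, 0.181, with a log2 fold change of 0.37 (SE 0.27). mt-Tw (tryptophan) followed with -0.17 (SE 0.13, p 0.23). Exact permutation tests (two-sided) of 17 of these genes gave p of 0.227 or more, the adjusted values were 0.981 or more, and every pair of group ranges overlapped. The median log2 fold change of the 25 genes was 0.02, beside -0.002 for all genes. Within sequencing lanes, mt-Rnr1 differed by 0.11 in lane 2 and by -0.10 in lane 3 on the log2 scale.

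In blood 15 members (the 2 rRNAs and 13 mRNAs) were tested for nPM, and 0 passed an unadjusted p of 0.005, beside 0.17% of 9977 genes. At an adjusted p of 0.05 it was 0, beside 0% of all genes, and at an unadjusted p of 0.05 edgeR, DESeq2 and limma voom each called 0. mt-Rnr1 was at 2477 to 3313 scaled CPM in controls (median 2757) and 2661 to 3842 with nPM (median 3311), a log2 fold change of 0.25 (SE 0.22). mt-Rnr2 was at 19412 to 28060 and 21284 to 35969, a log2 fold change of 0.21 (SE 0.26). The groups overlapped in both.

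Log2 fold changes in blood were 0.26 (SE 0.20) for mt-Nd1, 0.28 (SE 0.21) for mt-Nd2, 0.12 (SE 0.26) for mt-Co1, 0.19 (SE 0.19) for mt-Nd4, 0.26 (SE 0.21) for mt-Nd5, 0.27 (SE 0.27) for mt-Nd6 and 0.20 (SE 0.21) for mt-Cytb. For the 6 mRNAs of the copied stretch they were -0.08 to 0.09 (SE 0.33 to 0.41). The exact permutation test (two-sided, 15 genes) gave its lowest p, 0.0823, for mt-Rnr1, which was 0.606 after adjustment, and all group ranges overlapped. The median of the 15 was 0.19, beside 0.002 for all genes.

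The lanes differed in blood. The rRNA share in lane 1 was 2.53% in controls and 3.45% with nPM, and in lane 3 it was 2.55% and 2.42%. mt-Rnr2 differed by 0.34 on the log2 scale in lane 1 and by -0.11 in lane 3, so its higher level with nPM was not present in both lanes.

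**Figure D3:**
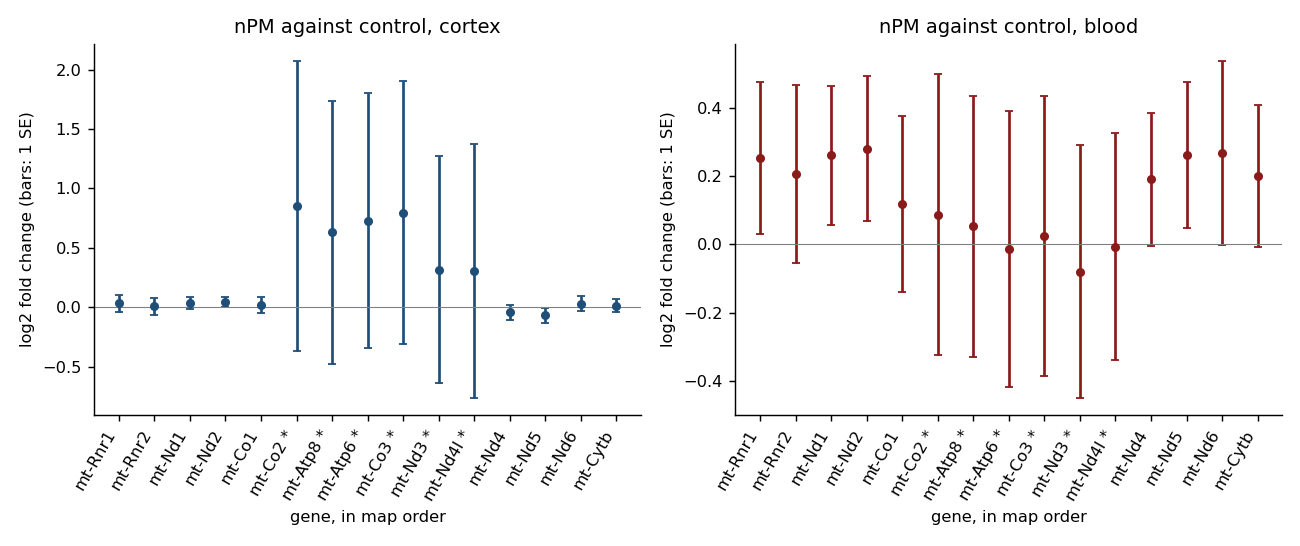
Log2 fold change of nPM against control with 1 SE (edgeR, exposure, sex and RIN in the model) for the 2 rRNAs and 13 mRNAs in map order, in cortex and blood. Genes outside the copied stretch sit between -0.07 and 0.05 in cortex and between 0.12 and 0.28 in blood, and the 6 genes marked with an asterisk have error bars of up to 1.22 in cortex.

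Exposure was then compared within each sex, with a term for the difference between male and female responses. In cortex this difference passed an unadjusted p of 0.005 in 0 of 25 members, beside 1.35% of all genes, and in 0 after adjustment, beside 0%. At an unadjusted p of 0.05, for which the share of all genes is not given, edgeR called 3, DESeq2 4 and limma voom 1. The 3 were mt-Co2 with a log2 difference (male minus female response) of 5.34 (SE 1.81, p 0.0104, adjusted p 0.403), mt-Nd3 with 4.55 (SE 2.02, p 0.0407, adjusted p 0.498) and mt-Nd6 with -0.26 (SE 0.11, p 0.037, adjusted p 0.49). mt-Co2 and mt-Nd3 lie in the copied stretch, and without the control female library V12 the mt-Co2 value was 3.41 (p 0.199). Without V19 it was 6.54 (p 8.31e-05) and without V13 5.70 (p 0.00498), and mt-Nd3 was at 4.83 (p 0.00289) with lane in the model. A filter of at least 1 count in any library, which lets in many genes near 0 and gave edgeR an infinite prior number of degrees of freedom in place of 7.215, called 7 members past 0.005 and 6 after adjustment, mt-Co2 and mt-Nd3 among them. The share of all genes under that filter is not given, so these calls are not read as a result about the members.

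For mt-Nd6 the control females were at 48.0, 39.5 and 39.1 scaled CPM and the nPM females at 42.2, 42.3 and 53.5, while control males were at 46.8, 45.6 and 48.2 and nPM males at 45.6, 42.6 and 47.8. The groups overlapped in both sexes. Without the nPM female library V20 the difference was -0.15 (p 0.231), and without the nPM male library V23 it was -0.38 (p 0.00303, adjusted p 0.613). The rRNAs had interaction values of -0.07 (mt-Rnr1, SE 0.15) and -0.21 (mt-Rnr2, SE 0.15).

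In the sexes taken alone, 0 of 25 members passed an unadjusted p of 0.005 in cortex of females, beside 2.01% of all genes, and 0 in males, beside 0.336%. At an unadjusted p of 0.05 edgeR called 0 in females and 1 (mt-Co2, log2 fold change 3.25, SE 1.20, p 0.0166) in males, DESeq2 0 and 1, and limma voom 0 and 0. No member passed an adjusted p of 0.05 in either sex, beside 0% of all genes. The filter of at least 1 count in any library called 6 after adjustment in each sex, and without the control female V19 1 passed 0.005 in each. The shares of all genes in these refits are not given, so the counts show only that the calls depend on the setting.

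In blood the difference between male and female responses had its smallest p in mt-Nd2, which encodes a complex I subunit. The log2 difference of mt-Nd3 was larger, 1.21 (SE 0.72) against 1.16 (SE 0.37) for mt-Nd2. For mt-Nd2, nPM males were at 20.6, 18.7 and 19.5 scaled CPM (V21, V5 and V7) and control males at 9.35, 14.2 and 11.9 (V22, V6 and V8). nPM females were at 14.04, 10.5 and 10.5 (V1, V18 and V3) and control females at 15.4 and 12.7 (V17 and V4). The nPM males lay above every other blood library in the comparison, and the females of the 2 exposures overlapped. The control female V2, which was left out, had 157 CPM of mt-Nd2 without scaling, against 19.2 to 23.1 CPM in the nPM males.

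The male response was a log2 fold change of 0.83 (SE 0.24, p 0.00282, adjusted p 0.941), and mt-Nd2 was thus the 1 of 15 members past an unadjusted p of 0.005, beside 0.351% of all genes. The female response was -0.34 (SE 0.26), and 0 of 15 members passed in females, beside 1.12%. At an unadjusted p of 0.05 edgeR and DESeq2 called 0 in females and limma voom 1. The difference between the sexes was 1.16 (SE 0.37, p 0.00502, adjusted p 0.452), just outside the threshold, so 0 of 15 members passed it, beside 0.902% of all genes. DESeq2 called 0 and limma voom 1 for this difference, and at an unadjusted p of 0.05 edgeR and DESeq2 called 2 and limma voom 3. No member passed an adjusted p of 0.05 in males, in females or for the difference, beside 0%, 0.02% and 0% of all genes. The mt-Nd2 difference passed 0.005 without V4 (1.47, p 0.00301) or V6 (1.23, p 0.00404). Without the nPM female V3, 4 members passed 0.005 in females. The share of all genes in that refit is not given, so the count shows only that the calls depend on this library.

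All 3 nPM males lay above all 3 control males in 5 of 15 members (mt-Nd1, mt-Nd2, mt-Nd4, mt-Nd5 and mt-Cytb), beside 620 of the 9977 genes (6.21%). They lay below in 0 members, beside 489 of the 9977 genes. The adjusted p of each of the 5 was 0.941. The left-out control female V2 stood above every other blood library in each of them. Without scaling it had 511 CPM of mt-Nd1, 157 of mt-Nd2, 189 of mt-Nd4, 232 of mt-Nd5 and 574 of mt-Cytb. mt-Nd5 was at 32.5, 26.5 and 33.9 scaled CPM in nPM males and at 13.4, 20.03 and 23.6 in control males, a log2 fold change of 0.70 (SE 0.26, p 0.0146). mt-Cytb was at 49.9, 78.3 and 68.8 in control males and at 108, 84.1 and 96.1 in nPM males (0.57, SE 0.26, p 0.0436), and 1 control female library stood at 85.1. mt-Nd1 in males changed by 0.57 (SE 0.27, p 0.0446), from 32.5 to 57.6 in controls to 63.9 to 67.1 with nPM. mt-Co1 and the rRNAs had no such order, with mt-Co1 at 1972 to 2370 in nPM males and 1771 to 2687 in control males. mt-Nd1 and mt-Co1 were named here after their values were seen. The log2 fold changes of mt-Rnr1 and mt-Rnr2 in males were 0.21 (SE 0.30) and 0.06 (SE 0.35).

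The mt-Nd2 call in males rested on few libraries. It was lost without V22 (p 0.023), V1 (p 0.0201), V8 (p 0.0098), V21 (p 0.00982), V5 (p 0.00696) or V7 (p 0.0051), while the fold change stayed between 0.68 and 0.91. It was also lost without RIN in the model (0.73, p 0.00627) and with V2 included (0.83, p 0.0221).

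Markers of other cells were summed in the same libraries. Among the nPM males, brain cell markers exceeded the range of the control blood libraries in V5 only. Those controls had 2.06 to 6.19 CPM of astrocyte and radial glia markers, 9.56 to 17.9 of oligodendrocyte lineage markers and 1.46 to 6.62 of neuron markers. V5 had 32.1 CPM of the 6 astrocyte and radial glia markers, 44.0 CPM of the 6 oligodendrocyte lineage markers and 11.8 CPM of the 9 neuron markers, the highest sums of the 11 libraries. V21 and V7 had 4.69 and 3.00, 13.8 and 9.17, and 6.06 and 1.86 CPM. Without V5 the log2 fold change of mt-Nd2 in males was 0.85. Among blood cell markers, the interaction had a negative sign in 9 of 9 red cell lineage markers (median -0.75) and 5 of 5 platelet markers (median -1.10), and a positive sign in 6 of 6 neutrophil (median 0.91) and 7 of 7 lymphocyte markers (median 0.92), beside a median of 0.09 for all genes. The share of each sign over all genes is not given. Markers share their libraries, and red cell lineage markers took most of the blood counts, so the signs are not separate observations. The part of these cell types in the mitochondrial values was not tested.

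**Figure D4:**
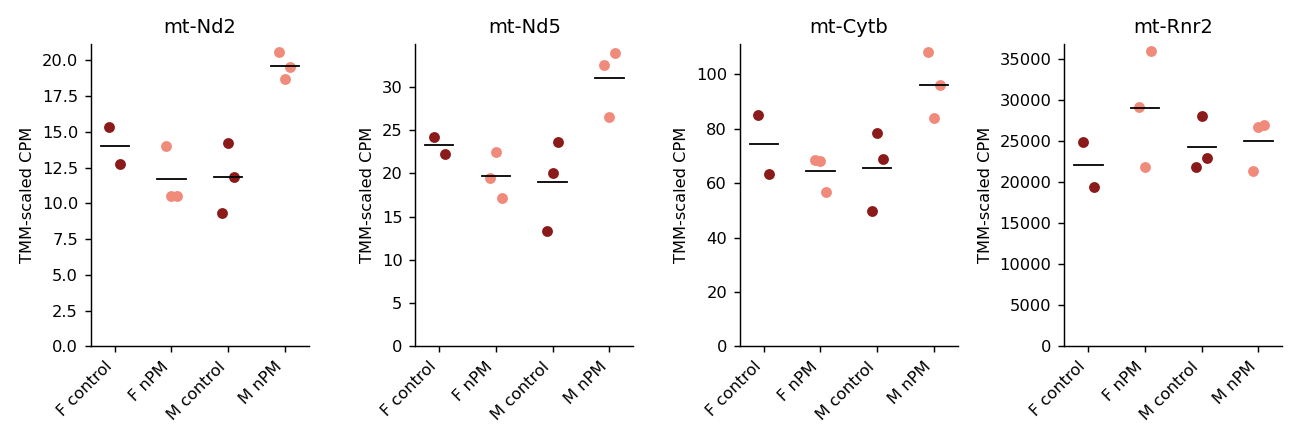
TMM-scaled CPM of mitochondrial mRNAs and rRNA in the 11 blood libraries by sex and exposure, 1 point per library, axes from 0. For mt-Nd2 the nPM males (18.7 to 20.6) lie above the control males (9.35 to 14.2) and all females (10.5 to 15.4).

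Male and female pups were compared across exposures. In cortex 0 of 25 members passed an unadjusted p of 0.005, beside 0.518% of all genes, and at an unadjusted p of 0.05 edgeR and limma voom called 1 and DESeq2 5. The smallest p were those of mt-Nd3 (log2 male minus female -2.98, SE 1.34, p 0.0421), mt-Nd4l (-3.00, SE 1.42, p 0.051) and mt-Atp6 (-3.06, SE 1.56, p 0.069), all of the copied stretch. After adjustment 0 passed, beside 0.0336% of all genes, but with the filter of at least 1 count in any library 6 did. Without the nPM male V15, 4 passed 0.005. The shares of all genes with that filter and without V15 are not given. mt-Rnr1 and mt-Rnr2 differed by 0.06 and 0.10 (SE 0.08 each) and mt-Nd6 by 0.01 (SE 0.07). In blood 0 of 15 passed, beside 0.351%, and 0 after adjustment, beside 0%, and edgeR, DESeq2 and limma voom called 0 at an unadjusted p of 0.05. The smallest p were those of mt-Nd5 (0.37, SE 0.27, p 0.192), mt-Cytb (0.32, SE 0.26) and mt-Nd2 (0.31, SE 0.27).

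Control cortex and control blood were compared last. The RIN ranges of the tissues did not overlap (9.4 to 9.9 in cortex, 7.5 to 9.3 in blood), and RIN was not a term. Tissue therefore cannot be told apart from RNA quality here. Cortex libraries lay in lanes 2 and 3, and blood libraries in lanes 1 and 3. Of 16 members tested, 14 passed an adjusted p of 0.05, beside 86.2% of all 10275 genes, so a call by itself says little here, and 12 passed an unadjusted p of 0.005, beside 79.8%. With TMM scaling, 3 were higher in cortex, beside 46.8% of all genes, and 11 were lower, beside 39.5%. Those directions depend on the scale. Without TMM 10 members passed, all higher in cortex, beside 89.8% of all genes, and 0 were lower, beside 6.02%. Of the 11 lower with TMM, mt-Co2, mt-Atp8, mt-Atp6 and mt-Co3 then had no call (-0.64, -0.59, -0.95 and -0.63), mt-Nd3 and mt-Nd4l turned sign with no call, and mt-Rnr1, mt-Rnr2, mt-Co1, mt-Nd4 and mt-Nd6 were called higher. The median of all genes was 0.24 with TMM and 4.69 without. The TMM factors lay between 4.02 and 4.23 for cortex libraries and between 0.144 and 0.243 for blood libraries, where red cell lineage markers took most of the counts.

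With TMM scaling mt-Rnr2 was lower in cortex by a log2 difference of -3.04 (SE 0.14, adjusted p 3.82e-12), mt-Rnr1 by -2.76 (SE 0.14, adjusted p 9.53e-12) and mt-Co1 by -2.09 (SE 0.19, adjusted p 2.19e-08), while as CPM without TMM they were higher in cortex by 1.46, 1.74 and 2.45. mt-Nd1, mt-Nd2 and mt-Cytb were higher in cortex on both scales, by 1.37 (SE 0.16), 1.27 (SE 0.13) and 0.74 (SE 0.15) with TMM and by 5.89, 5.77 and 5.25 without. mt-Nd6 was lower with TMM (-0.67, SE 0.22, adjusted p 0.0108) and higher without (3.85), and without the library V17 its call was lost (-0.29, adjusted p 0.12). mt-Nd5 differed by 0.14 (adjusted p 0.345) with TMM, by 4.63 (adjusted p 3.81e-14) without, and by 0.87 (adjusted p 1.43e-05) with TMM and at least 10 counts in every library. The tRNA mt-Tw differed by 0.13 (adjusted p 0.752) with TMM. mt-Nd1, mt-Nd2, mt-Nd5, mt-Cytb and mt-Tw were named here after their values were seen.

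Ratios within a library do not depend on the scale, and 6 of them, chosen after the data were seen, are described without a test. mt-Co1 over mt-Nd1 per length was 2.52 to 2.97 in control cortex and 19.3 to 35.3 in control blood, a log2 difference of -3.45. mt-Co1 over mt-Cytb differed by -2.81. mt-Rnr2 over mt-Nd1 was 13.7 to 14.9 in cortex and 263 to 407 in blood, a log2 difference of -4.45. None of these ranges overlapped. The rRNA counts in such ratios are what was left after depletion, and the part of depletion in the tissue difference was not tested.

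mt-Nd1 over mt-Cytb was 1.18 to 1.34 in cortex and 0.757 to 0.879 in blood (log2 difference 0.63). mt-Rnr2 over mt-Rnr1 differed by -0.29 and mt-Nd6 over mt-Nd5 by -0.75, and the ranges overlapped in both.

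Of the counts on the 7 mRNAs outside or partly inside the copied stretch, mt-Co1 held 59.0% to 64.1% in the 12 cortex libraries and 87.7% to 94.9% in the 11 blood libraries. In V2 it held 70.1%. In control cortex mt-Nd1 held 14.4% ± 0.596 (SD, n = 6) and mt-Cytb 13.9% ± 0.72 (SD, n = 6), and in control blood 2.00% ± 0.478 (SD, n = 5) and 3.01% ± 0.765 (SD, n = 5). With nPM the share of mt-Co1 was 61.6% ± 1.67 in cortex and 91.2% ± 2.88 in blood, within 1 SD of the controls (61.6% ± 1.41 and 91.7% ± 2.21).

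**Figure D5:**
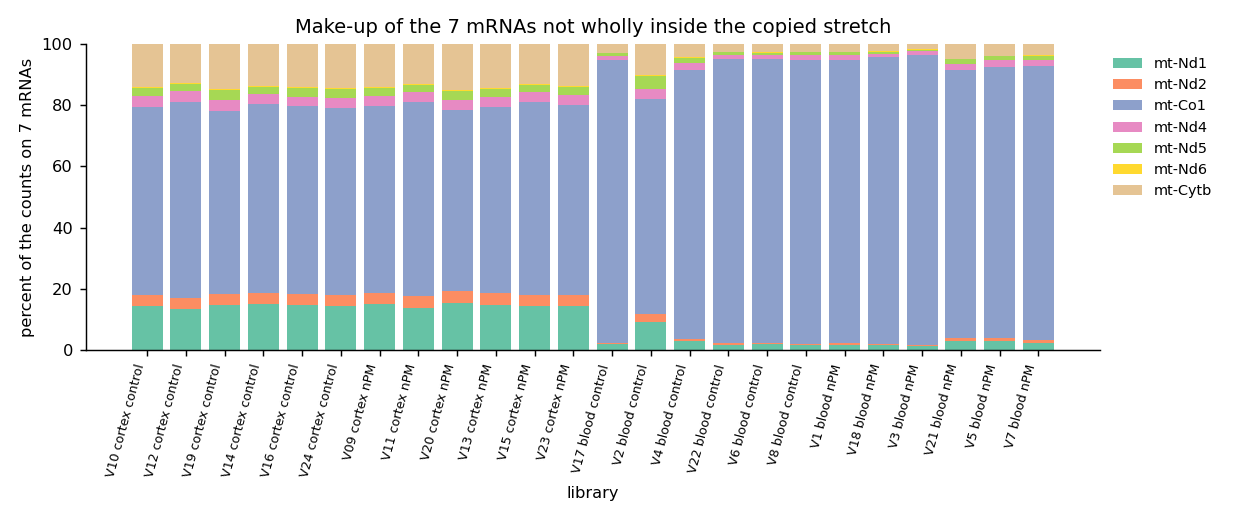
Share of each of 7 mRNAs in their summed counts (percent, stacked bars from 0 to 100), 1 bar per library, labelled with tissue and exposure. mt-Co1 takes 59.0% to 64.1% in cortex, 87.7% to 94.9% in blood and 70.1% in V2.

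The nuclear genes of the respiratory chain and of mitochondrial gene expression were read beside the mitochondrial ones. For nPM in cortex and in blood, 0 genes of any of these 8 lists passed an unadjusted p of 0.005, beside 0.614% and 0.17% of all genes. In cortex 32 of the 36 nuclear complex I genes had a positive sign, with a median of 0.02 on the log2 scale. The share of positive signs over all genes is not given, and these genes share their libraries, so no joint rise is read from the signs.

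In the cortex interaction, 4 of 36 complex I genes were lower (a lower male than female response) at an unadjusted p of 0.005, beside 0.604% of all genes, with Ndufa5 at -0.38 (SE 0.09, p 0.000894) and Ndufb8 at -0.32 (SE 0.09, p 0.00231). Complex III had 2 of 9 lower (Uqcr11 -0.42 and Uqcrb -0.29), complex IV 1 of 10 (Cox7a2 -0.35, p 0.000787), ATP synthase 3 of 15 (Atp5e -0.36 and Atp5j2 -0.31 among them) and complex II 0 of 4. None was higher and none passed an adjusted p of 0.05. List medians were -0.24, -0.22, -0.17, -0.16 and -0.20 for complexes I, II, III, IV and V, beside -0.002 for all genes. The mitochondrial complex I mRNAs stood at -0.09 (mt-Nd1), -0.06 (mt-Nd2), 0.16 (mt-Nd4), 0.05 (mt-Nd5) and -0.26 (mt-Nd6), and at 4.55 (mt-Nd3) and 4.43 (mt-Nd4l) in the copied stretch. Slirp, which binds mitochondrial mRNAs, was the 1 of 32 RNA processing genes past 0.005 (-0.41, SE 0.12, p 0.00333), and 0 of 23 genes of mtDNA transcription and replication and 0 of 22 aminoacyl-tRNA synthetase genes passed.

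In the blood interaction mt-Nd2 (1.16), the other mitochondrial complex I mRNAs and mt-Cytb (0.79) were positive. mt-Co1 (-0.76), mt-Co2 (-0.60), mt-Co3 (-0.37), mt-Atp6 (-0.35), mt-Atp8 (-0.31), mt-Rnr1 (-0.10) and mt-Rnr2 (-0.32) were negative. The nuclear lists of complexes I to V were negative at the median. Their medians were -0.45, -0.19, -0.78, -0.69 and -0.55 for complexes I to V in that order, beside 0.09 for all genes, and 1 complex I gene was lower at an unadjusted p of 0.005, beside 0.451% of all genes (Ndufs1, -1.24, SE 0.38, p 0.00406). Among the synthetases, 1 of 19 was higher, again beside 0.451% (Gatc, a subunit of the mitochondrial glutamyl-tRNA(Gln) amidotransferase, 4.81, SE 1.05, p 0.000197), and 0 of 13 transcription and replication and 0 of 25 RNA processing genes passed.

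Between control tissues with TMM scaling, 27 of 36 complex I genes were higher in cortex and 7 lower at an adjusted p of 0.05, complex II had 4 and 0 of 4, complex III 4 and 1 of 9, complex IV 3 and 5 of 10 and complex V 8 and 4 of 15. For transcription and replication it was 9 and 3 of 14, for RNA processing 16 and 5 of 27 and for synthetases 14 and 3 of 19. Of all genes 46.8% were higher and 39.5% lower. Without TMM every tested gene of these lists was higher in cortex, beside 89.8% of all genes, except 1 of the 19 synthetase genes, which was lower, beside 6.02%. The summed level of the 36 complex I genes was 2330 to 2732 CPM in cortex and 101 to 163 CPM in blood, with no TMM scaling.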

How the data were processed

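RNA was made into libraries with the Illumina RiboZero Gold kit. The authors deposited whole-number counts per gene, made with HISAT2 on mm10 and featureCounts 1.5.0-p3 on Gencode M11 per the methods and the submitters' processing notes. Strand and the handling of reads with several matches are not given in the sources used here. Mean RPKM values in the deposited gene table were not used; RPKM here was computed from the counts.

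Only genes counted at least 1 time in all libraries that a fit used were tested, with edgeR 4.0.16 (quasi-likelihood F test, TMM, Benjamini-Hochberg over all genes; R 4.3.3). Model 1 had exposure, sex and RIN (9.4 to 9.9 in cortex, 7.5 to 9.3 in blood). Model 2 added exposure by sex, and the tissue model had sex. SE is the log2 fold change over the square root of F. Thresholds were 0.005 for the unadjusted and 0.05 for the adjusted p, all two-sided. Shares of all genes are given for the main fits at these thresholds and for the tissue comparison without TMM. Counts of members at an unadjusted p of 0.05, under other settings or with a library left out stand without such a share. They show how the calls move and are not read as results about the members. Scripts were tested on simulated counts. Alternatives were DESeq2 1.42.0, limma 3.58.1 voom, RLE, other filters, no RIN, lane, V2 included (it was left out of the main comparisons because the study left out a blood sample and earlier work on these data traced it to V2) and each library left out.

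Named genes were the 13 mRNAs and 2 rRNAs for nPM, plus tRNAs among the 3 smallest p; elsewhere the rRNAs, mt-Nd6 and the 3 smallest p; the 5 tRNAs of highest mean count; and at most 2 genes of smallest p per list. Members and lists were chosen with earlier results of these data known. p-values measure the spread between pups, with no term for litter. The labels give the dose in mg/m3 and the methods in μg/m3.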

Additional observations from a re-analysis of the deposited data

Results flagged for a closer look

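Each group of 4 to 10 libraries was examined for 1 library that stood apart from the rest. Of 68 groups 9 had one. A rate of 1 in 20 gives 3.4 for independent groups, but these groups share libraries, and the summed shares hold the same genes. The 9 are therefore not separate events, and no excess over chance is read from them. In control cortex the female library V12 stood apart for all 6 mRNAs of the copied stretch. V12 had 2292 CPM of mt-Co2 (the other 5 libraries 21.7 to 466.3), 233.6 CPM of mt-Atp8, 1012 CPM of mt-Atp6, 3241 CPM of mt-Co3, 372.2 CPM of mt-Nd3 and 36.71 CPM of mt-Nd4l, and 2.191% of its gene counts on the 13 mRNAs, against 1.33% to 1.64% in the others. In nPM cortex the female library V11 had 161.0 CPM of mt-Atp8, against 1.06 to 59.4. In nPM blood the female library V3 had 3320 CPM of mt-Co1, against 2230 to 2478.

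The control female blood library V2, which the main comparisons left out, had 0.5969% of its gene counts on the 13 mRNAs (0.258% to 0.511% in the other 11), 0.5621% on the 7 mRNAs not wholly in the copied stretch (0.185% to 0.3497%) and 3.162% on the rRNAs (2.16% to 3.98%). Its neuron markers summed to 51.9 CPM, above the 1.28 to 11.8 CPM of the others, and its red cell lineage markers to 517830 CPM, below their 695824 to 791465 CPM.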

How the results depend on the processing

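Leaving out single libraries moved some counts of mitochondrial genes past an unadjusted p of 0.005: 0 to 4 for males against females in cortex, 0 to 4 for nPM in blood of females, 0 to 1 in blood of males, 0 to 1 in cortex of females and of males, and 0 to 1 for the interaction in cortex and in blood. With at least 1 count in any library as the filter the counts were 3 for nPM in cortex, 7 for the cortex interaction (6 adjusted), 6 for sex in cortex, for nPM in females and for nPM in males (6 adjusted in each) and 1 for the blood interaction. That filter moved edgeR's prior degrees of freedom in cortex from 7.37 to 365.1 in model 1, and the shares of all genes under it are not given. The cortex interaction count was 1 with lane added; the blood interaction count was 1 with limma voom and 1 with at least 10 counts in every library; the count in blood of males was 0 without RIN and 0 with V2; and 6 of the tissue differences passed 0.005 with V2, against 12.

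For nPM in cortex the sign changed for mt-Nd3 (-1.41 by limma voom, -0.16 with lane) and mt-Nd4l (-0.019 by limma voom). For nPM in blood it changed for mt-Co2 (-0.19 limma voom, -0.30 lane), mt-Atp8 (-0.23, -0.30), mt-Co3 (-0.26, -0.36, and -0.019 without RIN), mt-Atp6 (0.0084 by DESeq2, 0.0087 with RLE, 0.28 with V2), mt-Nd3 (0.11 with V2) and mt-Nd4l (0.095 limma voom, 0.0096 RLE, 0.17 with V2). Other sign changes were mt-Rnr1 (0.082 in the blood interaction with at least 10 counts; 0.024 without RIN, 0.039 with lane and 0.25 with V2 for sex in blood; -0.0064 in cortex of males without RIN), mt-Rnr2 (0.18 for sex in blood with V2; -0.0063 with lane and -0.047 with V2 in blood of males) and mt-Nd6 (-0.089 in the blood interaction with V2; -0.10 for sex in blood without RIN). Between tissues as CPM without TMM (chosen after seeing the data) these were mt-Rnr1 1.74, mt-Rnr2 1.46, mt-Co1 2.45, mt-Nd3 1.30, mt-Nd4l 0.90, mt-Nd4 4.04 and mt-Nd6 3.85; with at least 10 counts mt-Nd4 0.27 and mt-Nd6 0.055; and mt-Nd5 -0.10 by DESeq2 and with RLE.

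With single libraries left out, nPM values in cortex ran from -0.0028 to 0.093 for mt-Rnr1, -0.033 to 0.049 for mt-Rnr2, -0.023 to 0.065 for mt-Co1, -0.016 to 0.074 for mt-Nd6, -0.092 to 0.0010 for mt-Nd4, -0.015 to 0.056 for mt-Cytb, -1.69 to 1.93 for mt-Atp8, -1.35 to 1.84 for mt-Atp6, -0.65 to 1.95 for mt-Co3, -1.90 to 0.97 for mt-Nd3 and -1.75 to 1.86 for mt-Nd4l. In blood they ran from -0.098 to 0.25 for mt-Co1, -0.42 to 0.26 for mt-Co2, -0.38 to 0.23 for mt-Atp8, -0.49 to 0.17 for mt-Atp6, -0.47 to 0.20 for mt-Co3, -0.28 to 0.16 for mt-Nd3 and -0.21 to 0.17 for mt-Nd4l. mt-Rnr1 ran from -0.15 to 0.073 (cortex interaction), -0.34 to 0.14 (blood interaction), -0.00067 to 0.14 and -0.13 to 0.071 (sex in cortex and blood) and -0.080 to 0.13 (cortex of males); mt-Rnr2 from -0.66 to 0.056 (blood interaction) and -0.015 to 0.15 (blood of males); mt-Nd6 from -0.57 to 1.18 (blood interaction), -0.022 to 0.091 and -0.10 to 0.47 (sex in cortex and blood) and -0.65 to 1.09 (blood of females); and mt-Nd3 from -1.28 to 3.62 (cortex of males).

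With globin genes left out of the total, the 13 mRNAs took 1.25% of control and 1.32% of nPM blood counts, the 2 rRNAs 9.74% and 10.97%, and the 7 other mRNAs 0.874% and 0.970%; with V2 the control shares of the 13 and the 7 mRNAs were 0.370% and 0.282%. The causes were not tested. For counts and shares, 191 alternative values stayed within the margin and 24 did not, and with a library left out it was 235 and 17. DESeq2 gave no adjusted p for 4 members between tissues. No paired analysis was possible because the replicate names are unique to each library. Limits of the data are the unknown handling of reads shared with the chr1 copies, rRNA depletion, tRNA genes near 0 in blood, 2 control female blood libraries, and lanes that hold few libraries per group.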
